A study of Homo sapiens with 16 samples.

Results

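The core machinery that cleaves nuclear pre-mRNA and directs polyadenylation was examined in human U2OS-TR cells, osteosarcoma cells into which the tetracycline repressor was introduced. The 10 genes were taken by name from the subunits of CPSF and CstF, and all 10 were found among the 60107 genes counted in each library. The measurement was the number of 3′ end sequence tags per gene in cytoplasmic polyadenylated RNA, from 16 libraries. In the transgene line, 5 libraries came from uninduced U2OS-TR/ΔN-RNMT cells and 5 from the same cells induced with 1 μg/ml doxycycline for 24 h, 48 h after they were split. The transgene encodes ΔN-RNMT, an inactive form of the cap methyltransferase RNMT that is restricted to the cytoplasm, and it is carried by a single clonal line under tetracycline operator control. In the parental line, U2OS-TR cells without the transgene gave 3 libraries without doxycycline (No Dox) and 3 with it (With Dox). The treatment text recorded with the libraries lists the same dose for all 16, and the groups used here follow the library titles.

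CPSF is built of a polyadenylation specificity module and a cleavage module. CPSF1 is the large scaffold of the specificity module, WDR33 and CPSF4 contact the AAUAAA signal in the pre-mRNA, and FIP1L1 links the complex to poly(A) polymerase. CPSF3 is the endonuclease that cuts the transcript, CPSF2 is its inactive homologue and SYMPK is the scaffold of the cleavage module. The CstF subunits CSTF1, CSTF2 and CSTF3 recognise the GU-rich element downstream of the cleavage site, with CSTF2 binding RNA and CSTF3 serving as scaffold. The proteins act in the nucleus, whereas the RNA counted here is the cytoplasmic mRNA that encodes them.

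The mRNAs of these factors are themselves cleaved and polyadenylated, and a 3′ end tag is read next to the poly(A) tail. The last 50 bases of each canonical transcript in GENCODE release 44 were therefore searched on the sense strand for AATAAA and, where it was absent, for ATTAAA. Of the 19550 protein-coding transcripts searched in the same way, 64.2% held AATAAA, a further 14.1% held ATTAAA and 21.7% held neither. AATAAA was found for CPSF2, CPSF3, CSTF1, CSTF2 and CSTF3, ATTAAA for CPSF4, and neither for CPSF1, FIP1L1 and SYMPK. The last 30 bases are shown 5′ to 3′ for 3 members whose level changed in the transgene line, with the signal in capitals, since they include a member with ATTAAA and members with neither signal. They lie in the last exon at chr7:99457344-99457373 (forward strand) for CPSF4, chr4:53460833-53460862 (forward strand) for FIP1L1 and chr19:45815410-45815439 (reverse strand) for SYMPK, all in GRCh38.
CPSF4: ttatgaaatggATTAAAgcttgttttttaa
FIP1L1: acaagataaatatagtgtttcaacttctta
SYMPK: gaaaagaaaaaaaaaaagggatggcgggcc
A match describes these letters only. The annotated end need not be the end used in these cells, since the counts do not give tag positions.

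Libraries of the transgene line held 12527183 to 23251834 gene counts, of which the 10 members made up 5935 to 13955. Parental libraries were shallower, at 1473286 to 3214808 gene counts with 616 to 1543 on the members. RNMT, which the transgene was made from, lay between 55.6 and 112 CPM (TMM-scaled counts per mega-count) in uninduced libraries and between 266 and 458 CPM in induced libraries. The uninduced value of 112 CPM was that of replicate 5, and the next highest was 74.6 CPM in replicate 4. No library went against its label by this measure, though uninduced replicate 5 lay nearest the induced range. A pair of libraries nevertheless stood apart over the 13038 genes tested. Uninduced replicate 5 correlated at a mean of 0.911 with the other uninduced libraries and 0.971 with the induced libraries, and induced replicate 2 correlated at 0.935 with its own group and 0.963 with the uninduced group. For the other 8 libraries the mean correlation was higher with their own group. The changes of the members are given with and without them. Of 6 markers of mesenchymal or bone cells, VIM, COL1A1, SPARC and RUNX2 were counted in every library, COL1A2 was at or near 0 and ALPL did not exceed 1.205 CPM. ALB was at 0 in every library, PTPRC, CDH1 and PECAM1 did not exceed 2.67 CPM, and EPCAM lay between 1.83 and 14.3 CPM.

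Induction of ΔN-RNMT was accompanied by changes in both directions within the machinery. Of 10 members, 3 were lower (CPSF1, CPSF4 and SYMPK) and 2 were higher (WDR33 and FIP1L1) at an adjusted P under 0.05 (edgeR, quasi-likelihood F-test, P values adjusted over all genes tested after Benjamini and Hochberg). The background was high, since 19.8% of the 13038 genes were called lower and 20.0% were called higher. The median log2 fold change was -0.18 over the 10 members and 0.04 over all genes tested. No member had uninduced and induced libraries that did not overlap, whereas 7.30% of all genes tested did. Without uninduced replicate 5 and induced replicate 2, an alternative chosen after seeing the data, 8 of 10 members were called, 5 lower and 3 higher. In that fit 8329 of 12956 genes were called, 3949 lower and 4380 higher. In bulk RNA, fewer cells with an mRNA and less of it per cell cannot be told apart.

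**Figure D1:**
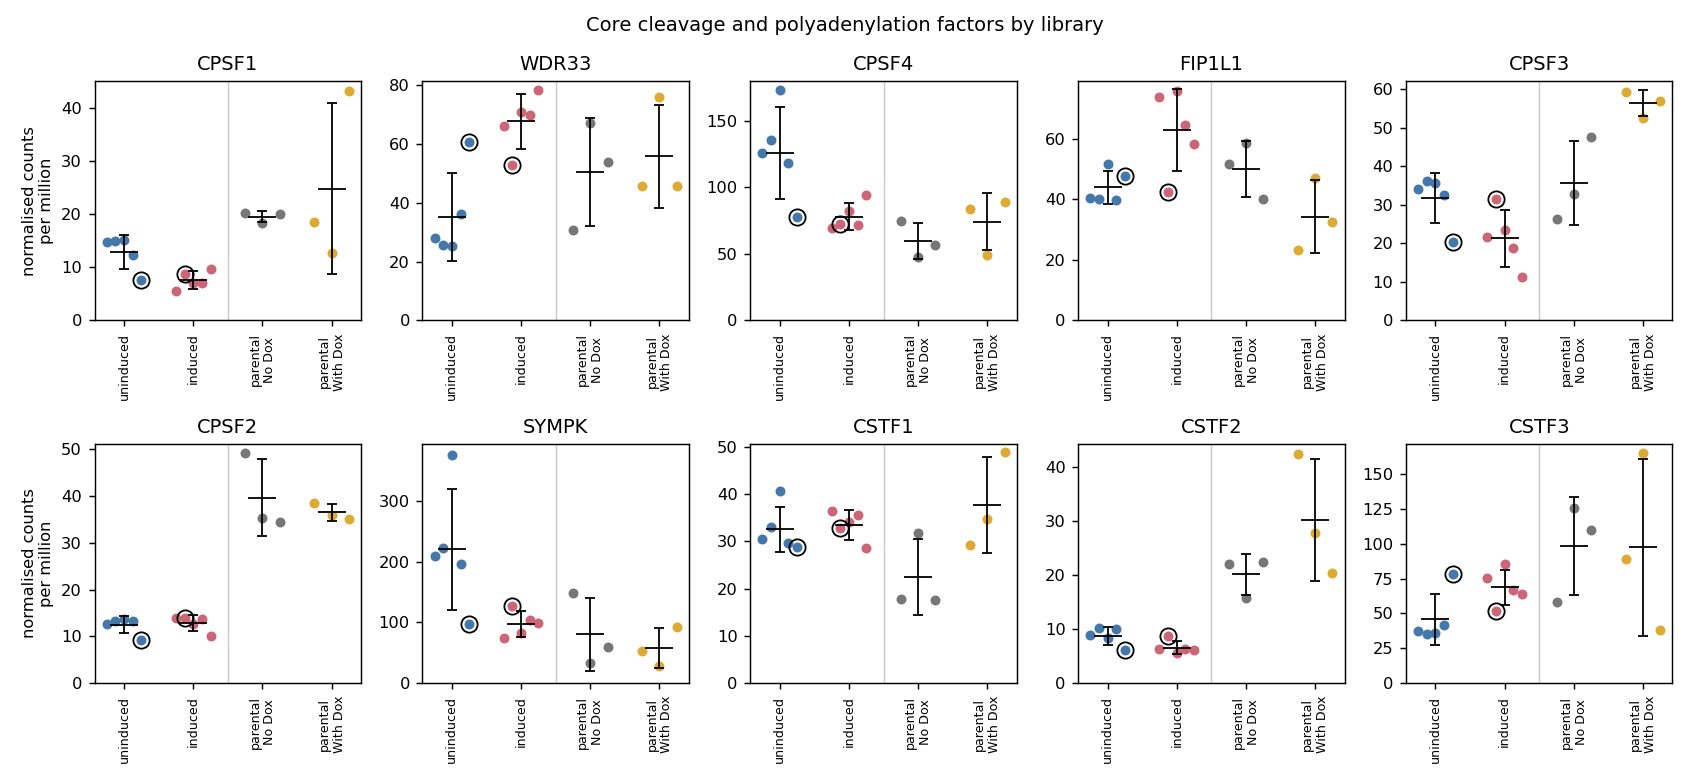
Normalised CPM (linear axis from 0) of the 10 members in each of 16 libraries, with 1 point per library and black bars for the mean and SD of each group of 5 or 3. Circles mark uninduced replicate 5 and induced replicate 2, and in the WDR33 panel they lie at 60.8 and 53.0 CPM, where the groups overlap.

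All 4 subunits of the specificity module passed the test, 2 in each direction, where 5183 of all 13038 genes passed. WDR33, which contacts the AAUAAA signal, had 27.9, 25.7, 25.4, 36.1 and 60.8 CPM in uninduced replicates 1 to 5 and 66.2, 53.0, 70.7, 69.7 and 78.4 CPM in induced replicates 1 to 5. The groups overlapped only through uninduced replicate 5, which lay above induced replicate 2. The means were 35.2 ± 14.96 CPM and 67.6 ± 9.32 CPM (SD, n = 5 each), a log2 fold change of 0.94 (standard error, SE, 0.25, edgeR adjusted P = 0.0187), and 1.30 without that pair of libraries. WDR33 was called with each single library left out and lost its call only with 1 surrogate variable (adjusted P = 0.120). Its last exon overlaps SFT2D3 on the opposite strand. Whether the counting used strand is not given in the sources used here, so tags of the pair may not be separated.

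CPSF4, the zinc finger subunit that contacts the same signal, moved the other way. It had 126, 135, 173, 118 and 77.3 CPM in uninduced libraries and 69.6, 72.1, 81.8, 71.6 and 94.0 CPM in induced libraries. Uninduced replicate 5 lay within the induced range and the other 4 uninduced libraries lay above it. The log2 fold change was -0.70 (SE 0.20, edgeR adjusted P = 0.0228). The call was kept in 5 of 10 fits that left out 1 library, and with offsets for GC content the adjusted P was 0.0974. Without uninduced replicate 5 and induced replicate 2 the log2 fold change was -0.80 (adjusted P = 0.000961).

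CPSF1, the scaffold, was a low-count gene with between 74 and 290 counts per library. It had 14.7, 14.9, 15.2, 12.4 and 7.55 CPM in uninduced libraries and 5.52, 8.84, 6.98, 7.005 and 9.74 CPM in induced libraries. As for CPSF4, uninduced replicate 5 lay within the induced range and the other 4 lay above it. The log2 fold change was -0.76 (SE 0.22, edgeR adjusted P = 0.0243), the call was kept in 5 of 10 fits that left out 1 library, and with GC offsets the adjusted P was 0.127. It was -0.97 without the libraries that stood apart (adjusted P = 0.00062). CPSF1 has 2 named pseudogenes, and its last exon overlaps ADCK5 on the opposite strand.

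FIP1L1, the link to poly(A) polymerase, had 40.6, 40.2, 51.7, 39.7 and 47.6 CPM in uninduced libraries and 73.7, 42.4, 75.7, 64.7 and 58.4 CPM in induced libraries. Induced replicate 2 lay within the uninduced range and the other 4 induced libraries lay above it. The log2 fold change was 0.52 (SE 0.18, edgeR adjusted P = 0.0374). FIP1L1 was called in 3 of 10 fits that left out 1 library, and with GC offsets its log2 fold change was 0.16 (adjusted P = 0.416). Without the libraries that stood apart it was 0.66 (adjusted P = 0.00188). Its last exon overlaps LNX1 on the opposite strand.

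In the cleavage module, the scaffold SYMPK passed the test and neither member of the nuclease pair did. SYMPK had 209, 222, 376, 197 and 98.0 CPM in uninduced libraries and 73.8, 128, 82.5, 104 and 98.4 CPM in induced libraries. The 4 uninduced libraries other than replicate 5 lay above every induced library. The means were 220.3 ± 99.8 CPM and 97.3 ± 20.9 CPM (SD, n = 5 each), a log2 fold change of -1.18 (SE 0.30, edgeR adjusted P = 0.0177) that was the largest in size among the 10 members. SYMPK was called with each single library left out, and it lost its call with 1 surrogate variable (adjusted P = 0.132) and with GC offsets joined to a replicate block (adjusted P = 0.0548). Without the libraries that stood apart its log2 fold change was -1.48 (adjusted P = 8.4e-05).

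CPSF3, the endonuclease, had 34.2, 36.1, 35.7, 32.6 and 20.4 CPM in uninduced libraries and 21.7, 31.6, 23.5, 18.8 and 11.3 CPM in induced libraries. Its log2 fold change of -0.57 (SE 0.26) did not pass the test (adjusted P = 0.0873 by edgeR). It passed with GC offsets, at a log2 fold change of -0.90 and an adjusted P of 0.0412, and without uninduced replicate 5 and induced replicate 2, at -0.89 and an adjusted P of 0.00213. CPSF2, the inactive homologue, lay between 9.24 and 13.8 CPM in uninduced libraries and between 10.2 and 13.9 CPM in induced libraries. Its log2 fold change was 0.05 (SE 0.16, edgeR adjusted P = 0.819), and it turned negative with GC offsets, at -0.40 (adjusted P = 0.116).

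No CstF subunit was called over all 10 libraries with edgeR and TMM scaling, and CSTF3 and CSTF2 were called without the libraries that stood apart. With total counts alone CSTF3 was called over all 10 libraries, at 0.81 (edgeR adjusted P = 0.0350). CSTF3, the scaffold, had 37.1, 35.6, 35.7, 41.9 and 78.1 CPM in uninduced libraries and 75.6, 52.1, 85.5, 66.8 and 64.1 CPM in induced libraries. Uninduced replicate 5 lay above all induced libraries except replicate 3, and the other 4 lay below every induced library. The log2 fold change was 0.59 (SE 0.24, edgeR adjusted P = 0.0670), and 0.95 (adjusted P = 0.000149) without the libraries that stood apart. Its gene overlaps TCP11L1 on the opposite strand in the last exon.

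CSTF2, the RNA-binding subunit, had few counts, between 84 and 206 per library. It lay between 6.07 and 10.3 CPM in uninduced libraries and between 5.65 and 8.70 CPM in induced libraries, with a log2 fold change of -0.40 (SE 0.19, edgeR adjusted P = 0.103). It was -0.63 (adjusted P = 0.00315) without the libraries that stood apart. CSTF1, the WD40 repeat subunit, lay between 28.8 and 40.6 CPM in uninduced libraries and between 28.5 and 36.3 CPM in induced libraries. Its log2 fold change was 0.04 (SE 0.14, edgeR adjusted P = 0.831), and -0.30 with GC offsets (adjusted P = 0.148).

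**Figure D2:**
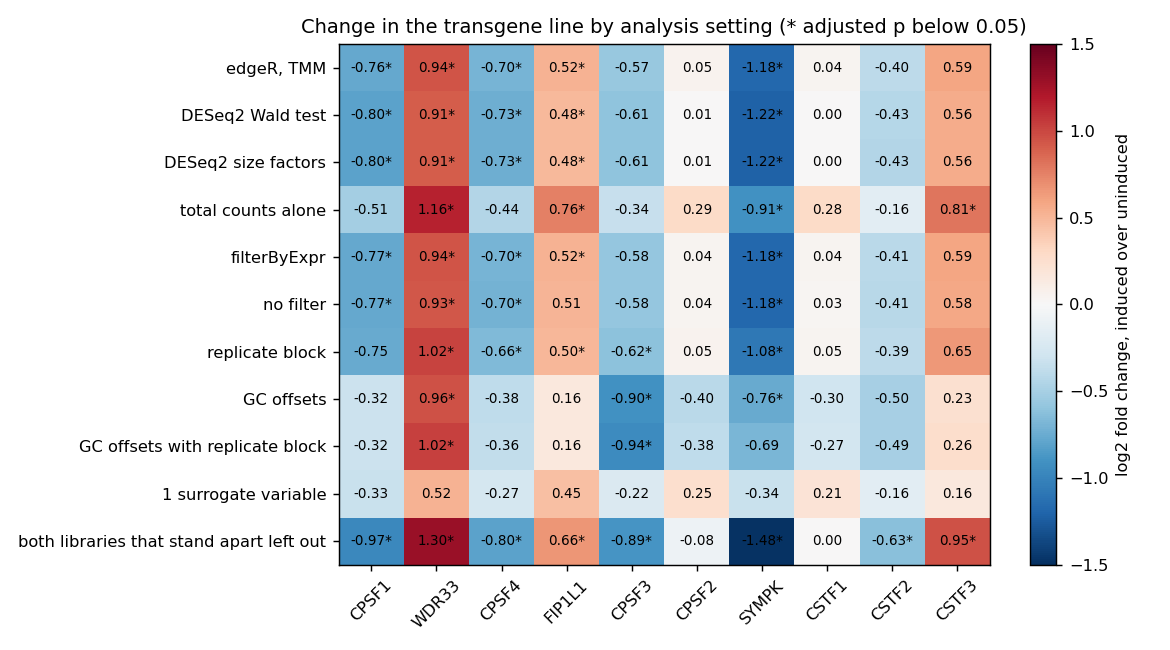
Log2 fold change of each member, induced over uninduced, in the transgene line under 11 analysis settings, with blue for lower, red for higher and an asterisk for an adjusted P below 0.05. The WDR33 column has an asterisk in every row except that with 1 surrogate variable, where no member has one, and the values of CPSF2 and CSTF1 stay near 0 apart from the rows with total counts alone, GC offsets and the surrogate variable.

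The members called lower had GC-rich transcripts. The canonical transcripts of CPSF1, SYMPK and CPSF4 held 62.3%, 60.6% and 57.4% GC, the highest values of the 10 members, whereas WDR33 held 50.3% and the remaining members between 39.0% and 47.9%. Across the 10 members, GC content and log2 fold change correlated at r = -0.64, and across 12922 tested genes at r = -0.37. Neither members nor genes are independent replicates. The median GC content was 57.0% for all genes called lower and 42.5% for those called higher. Offsets for GC content reduced the log2 fold changes of CPSF1 to -0.32, of CPSF4 to -0.38, of SYMPK to -0.76 and of FIP1L1 to 0.16, and left WDR33 at 0.96. The part of GC content in the changes was not tested.

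The balance between members can be read within a library, where depth and scaling cancel. For the 45 pairs of members, the difference in the log2 ratio between induced and uninduced libraries was tested over every relabelling of the 10 libraries into 5 and 5 (exact permutation test, two-sided, with a smallest possible P of 0.00794). No pair passed an adjusted P of 0.05, the lowest being 0.0564, whereas 29 pairs had an unadjusted exact P below 0.05. The widest shift was that of WDR33 to SYMPK, from a mean log2 ratio of -2.60 ± 1.19 to -0.51 ± 0.45 (SD, n = 5 each), a difference of 2.09 (exact P = 0.0159, adjusted P = 0.0564). Only CPSF2 to SYMPK had groups that did not overlap, with a difference of 1.13 (exact P = 0.00794, adjusted P = 0.0564). Without uninduced replicate 5, 31 pairs passed, without induced replicate 2, 22 pairs did, and without both, 29 pairs did. Both libraries were chosen after seeing that each lay nearer the other group, so these counts are a description. Pairs of genes other than members were not tested.

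The log2 ratio of WDR33 to SYMPK also varied among libraries of the same treatment. In uninduced replicates 1 to 5 it was -2.90, -3.10, -3.88, -2.44 and -0.69, and in induced replicates 1 to 5 it was -0.16, -1.27, -0.22, -0.58 and -0.33. In the parental line it was -2.24, 0.98 and -0.14 in No Dox replicates 1 to 3 and -0.22, 1.41 and -0.998 in With Dox replicates 1 to 3. Untreated parental libraries thus covered a range wider than the mean difference between induced and uninduced libraries, at a depth about an order of magnitude lower.

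**Figure D3:**
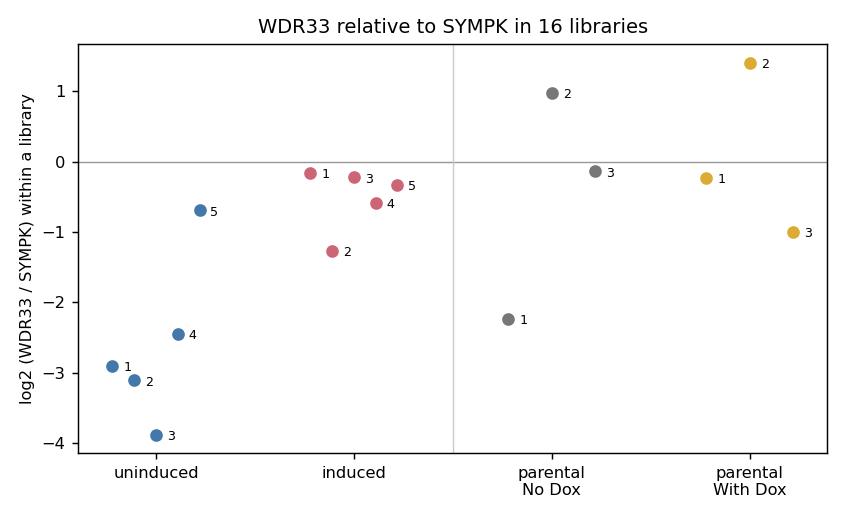
Log2 ratio of WDR33 to SYMPK within each of 16 libraries, by group, with the replicate number beside each point. Uninduced replicate 5 lies at -0.69 among the induced libraries, and the 3 parental No Dox libraries extend from -2.24 to 0.98.

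For some pairs, how far members moved together within a group depended on the libraries that stood apart. Over the deviations of all 10 transgene libraries from their group means, SYMPK correlated at r = 0.83 with CPSF1, 0.83 with CPSF4, -0.84 with WDR33 and -0.88 with CSTF3, and WDR33 correlated at 0.90 with CSTF3. Over the 8 libraries left without uninduced replicate 5 and induced replicate 2, the same pairs gave 0.49, 0.78, -0.37, -0.55 and 0.29. In the 6 parental libraries they gave 0.66, 0.92, -0.96, -0.91 and 0.81. These points share libraries, depth and scaling, and the pairs were chosen after their values were seen, so the correlations are a description. The genes other than members whose log2 CPM over the 10 transgene libraries was most like the members' mean z-score were MTMR12 (r = 0.98), LIN52 (0.97), HMGB3 (0.97), ANGEL2 (0.96) and PRKCQ (0.96). Members with opposite changes partly cancel in this mean, which ran from -0.55 in uninduced replicate 5 to 0.63 in uninduced replicate 3. These genes therefore need not follow any 1 member. Their r values are the highest among all genes tested and are a description.

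The other 3′-end processing factors, a list of 21 genes that work beside the core, had calls in both directions. Of the 21, 7 were higher and 4 were lower, against 20.0% and 19.8% of all genes, and their median log2 fold change was 0.49 against 0.04 over all genes. Of the polymerase and tail-binding genes, PAPOLA, the main poly(A) polymerase, rose by 0.99 on the log2 scale (SE 0.29, edgeR adjusted P = 0.0231). It had 18.6, 16.8, 15.8, 23.4 and 44.6 CPM in uninduced libraries and 50.1, 34.2, 43.96, 49.6 and 59.6 CPM in induced libraries. PAPOLA was called in 5 of 10 fits that left out 1 library, and with GC offsets it was at 0.61 (adjusted P = 0.0620). PABPN1, the nuclear poly(A) binding protein, rose by 1.06 (adjusted P = 0.0495), though it shares its last exon with a readthrough transcript, BCL2L2-PABPN1. Its call was kept in 2 of 10 fits that left out 1 library and lost with DESeq2's size factors (adjusted P = 0.0523). In the parental line PABPN1 had 189 ± 74.4 CPM without and 79.6 ± 39.3 CPM with doxycycline (SD, n = 3 each). These groups did not overlap, as for 3 of the 21 factors and 9.52% of all genes tested in that line. Its parental log2 fold change of -1.24 did not pass the edgeR test (adjusted P = 0.997). PAPOLG had a log2 fold change of 0.32 (adjusted P = 0.133).

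CSTF2T, an autosomal paralogue of CSTF2, rose by 0.96 on the log2 scale (SE 0.30, edgeR adjusted P = 0.0289), while CSTF2 itself had the value of -0.40 given above. CSTF2T was called in 3 of 10 fits that left out 1 library, and with GC offsets it was at 0.68 (adjusted P = 0.0653). Of cleavage factor II, CLP1 rose by 0.74 (adjusted P = 0.0343, called in 3 of 10 fits that left out 1 library) and PCF11 had a log2 fold change of 0.42 (adjusted P = 0.0843). None of NUDT21, CPSF6 and CPSF7, the subunits of cleavage factor I, was called, with log2 fold changes of 0.50, -0.26 and -0.50. The phosphatase genes were called in both directions, with PPP1CB at 1.11, SSU72 at -0.84 and PPP1CA at -0.68. In fits that left out 1 library, PPP1CB was called in 10 of 10, SSU72 in 7 and PPP1CA in 3. The last exon of PPP1CB overlaps SPDYA on the same strand, and that of PPP1CA overlaps RAD9A on the opposite strand. With GC offsets PPP1CB was still called, and SSU72 (adjusted P = 0.0573) and PPP1CA (adjusted P = 0.139) were not. RBBP6 was not called, at 0.24 without offsets.

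Of 5 factors of histone mRNA 3′ ends, the stem-loop binding protein SLBP rose by 1.46 on the log2 scale and CASP8AP2 by 0.68, whereas LSM10 changed by -0.85 and ZNF473 by -1.09. SLBP was at 2.22 without the libraries that stood apart, and CASP8AP2 at 0.23 with GC offsets, where it was not called (adjusted P = 0.344). In fits that left out 1 library, SLBP was called in 5 of 10, CASP8AP2 in 3 and ZNF473 in 6. LSM10 is a protein of the U7 snRNP. Of the 21 other factors, 2 had groups that did not overlap, LSM10 and CPSF7, against 7.30% of all genes tested. CPSF7 was not called. LSM10 had 57.3, 57.4, 64.2, 45.8 and 36.5 CPM in uninduced libraries and 28.1, 33.3, 29.4, 22.7 and 31.5 CPM in induced libraries. Its adjusted P was 0.0175 by edgeR. LSM11 was not called, at -0.23.

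No subunit of the Integrator cleavage module was called. INTS9 had 3.76, 3.51, 2.06, 3.97 and 25.2 CPM in uninduced libraries and 30.4, 6.26, 33.1, 26.9 and 31.4 CPM in induced libraries. Uninduced replicate 5 and induced replicate 2 each lay near the other group. The log2 fold change of INTS9 was 1.72 (SE 0.67, edgeR adjusted P = 0.0584), and 3.18 (adjusted P = 3.345e-07) without those libraries. Without them 18 of the 21 factors were called, 5 lower and 13 higher. In that fit 8329 of 12956 genes were called, 3949 lower and 4380 higher.

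**Figure D4:**
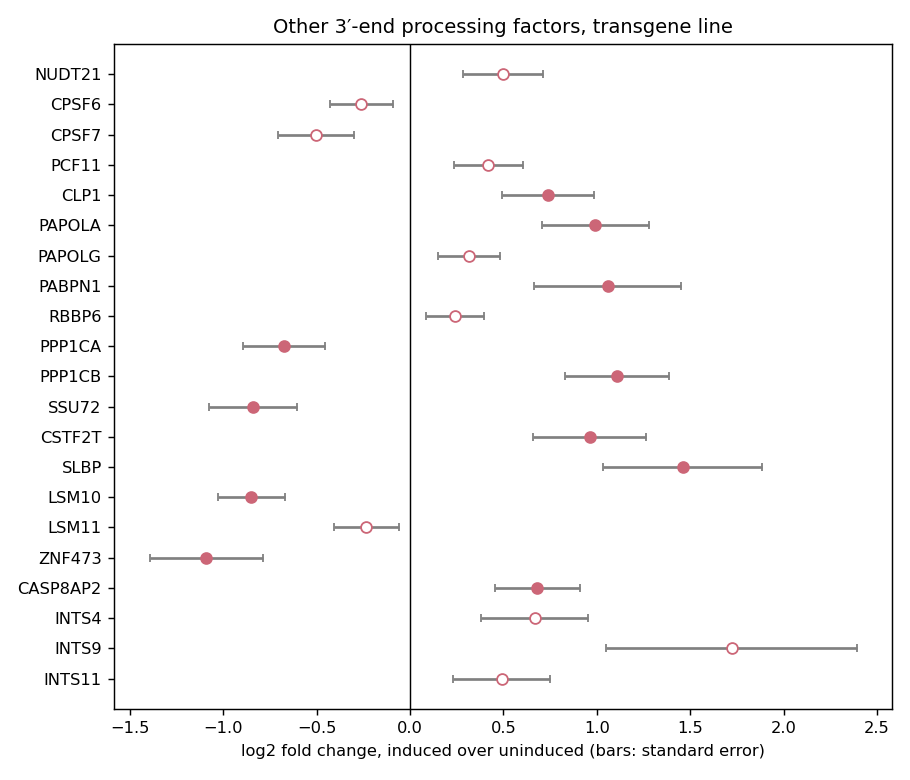
Log2 fold change, induced over uninduced, of 21 other 3′-end processing factors in the transgene line, with bars for the standard error and filled points for an adjusted P below 0.05. SLBP is the highest of the filled points at 1.46 and ZNF473 the lowest at -1.09, while INTS9 at 1.72 is open.

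The parental line served to ask whether doxycycline alone changed the same mRNAs. All 10 members were tested and none was called, with a lowest adjusted P of 0.997 by edgeR and a lowest unadjusted P of 0.123. No gene among 9124 was called (0%), 2.93% had an unadjusted P below 0.05, and DESeq2 called 1 gene and no member. The 6 libraries are shallow, and the standard errors of the members' log2 fold changes lay between 0.38 and 0.59.

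CPSF3 was the only member whose parental groups did not overlap, which 9.52% of all genes tested did. It had 26.4, 32.9 and 47.6 CPM in No Dox libraries and 59.3, 52.6 and 57.0 CPM in With Dox libraries, a log2 fold change of 0.65 (SE 0.39). The summed level of nuclear-retained RNA did not overlap between these groups either, at 471 to 1663 CPM without and 270 to 453 CPM with doxycycline. Of its genes only MALAT1 did not overlap, at 311 to 1310 CPM without and 121 to 129 CPM with doxycycline. NEAT1 (157 to 535 and 147 to 323 CPM) and KCNQ1OT1 overlapped, and MEG3 was at 0. Mitochondrial genes made up between 1.76% and 9.38% of counts in the 6 libraries. The part of nuclear-retained and mitochondrial RNA in the parental values was not tested. SYMPK had 148, 33.5 and 59.3 CPM in No Dox libraries and 53.6, 27.9 and 92.1 CPM in With Dox libraries, so that libraries of 1 treatment differed more than 4-fold. Its log2 fold change of -0.48 had a standard error of 0.59. For WDR33 the values were 30.8, 67.1 and 53.9 CPM without and 45.7, 75.8 and 45.6 CPM with doxycycline, a log2 fold change of 0.14 (SE 0.43).

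**Figure D5:**
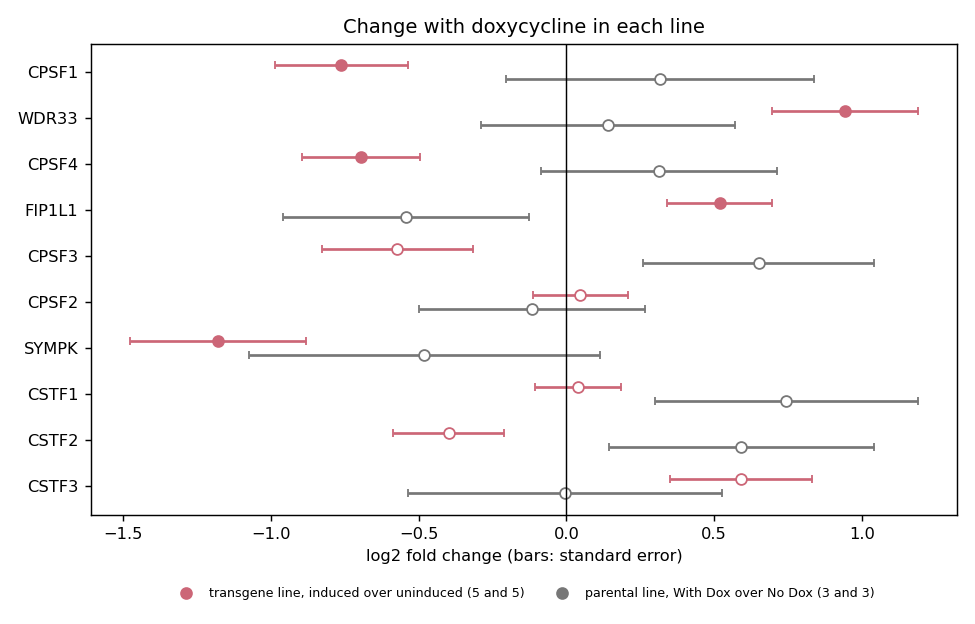
Log2 fold change with doxycycline of the 10 members in the transgene line (5 and 5 libraries) and the parental line (3 and 3), with bars for the standard error and filled points for an adjusted P below 0.05. The filled points are CPSF1, WDR33, CPSF4, FIP1L1 and SYMPK in the transgene line, and no parental point is filled.

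Whether the response differed between the lines was tested as an interaction over all 16 libraries. No member passed, against 2.98% of 12265 genes, and 6 of 10 had an unadjusted P below 0.05, as did 26.1% of all genes. The difference, the log2 fold change in the transgene line minus that in the parental line, was -1.46 for CPSF3 (SE 0.45, edgeR adjusted P = 0.0687), -1.25 for CPSF4 (SE 0.40, edgeR adjusted P = 0.0781) and -1.21 for CSTF2 (SE 0.40, edgeR adjusted P = 0.0828). DESeq2 called these 3 members, and 1478 of 12265 genes in all. For SYMPK, which was called in the transgene line and not in the parental line, the difference was -0.94 (SE 0.68, edgeR adjusted P = 0.381), and for WDR33 it was 0.59 (SE 0.42, edgeR adjusted P = 0.379). Their responses were therefore not shown to differ between the lines. Without uninduced replicate 5 and induced replicate 2, the difference was called for 4 members (CPSF1, CPSF4, CPSF3 and CSTF2). In that fit it was called for 3040 of 12003 genes. The lines also differed in depth and in the amount of tags outside genes, and were sequenced separately, so line and sequencing run cannot be told apart.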

How the data were processed

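The authors deposited whole-number counts of 3′ end tags per Ensembl gene, 1 table per library, from cytoplasmic RNA prepared with the QuantSeq 3′ mRNA-Seq REV kit. The paper names a Lexogen QuantSeq REV pipeline for GRCh38. The aligner and any use of strand or removal of duplicates are not given in the sources used here. Of each table, 92 spike-in entries (all 0) and 5 summary entries were left out. Tags outside genes amounted to 0.0744 to 0.106 per gene count in the transgene line and 1.11 to 1.50 in the parental line. Tags with several alignments, which were not counted, amounted to 0.561 to 1.45. Gene names came from GENCODE 44, which matched 56104 of 60107 identifiers.

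Groups followed the library titles. The quasi-likelihood test of edgeR 4.0.16 (R 4.3.3, TMM scaling) was run within each line and as an interaction, on genes whose base mean exceeded 20. P values were adjusted after Benjamini and Hochberg and called under 0.05. An SE is the size of the log2 fold change over the root of F. Ratios used log2 CPM with a prior count of 2. Alternatives were DESeq2 1.42.0, its size factors, total counts, 2 other filters, a replicate block, GC offsets (lowess span 0.5), 1 surrogate variable (sva 3.50.0) and each library left out. The edgeR fits and the permutation code (Python 3.11.15) were tested on simulated data.

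The members and gene lists were chosen with earlier results of these data known. Named were all members, the 21 other factors, RNMT and the 5 genes most like the members' mean z-score. Replicates were separate libraries, the paper calls those of the transgene line biological replicates, and all pairs differed by more than sampling noise (lowest chi-square per degree of freedom 4.55). Counting errors do not cover duplicate tags. The 3′ end sequence of 1 member is not reported here.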

Additional observations from a re-analysis of the deposited data

Results flagged for a closer look

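The gap of a library to its nearest neighbour, as a share of its group's range, was held against Dixon's 95% limit. Among 62 groups of 5 libraries (31 genes, uninduced and induced), 15 held a library that passed it. Chance would flag about 1 in 20 independent groups, but these groups share the same 10 libraries. The share over all genes tested was not computed, so the count cannot be read as a trait of these genes. Uninduced replicate 5, which stood apart over all genes tested, was the library in 10 of the 15 groups. It was the lowest for CPSF3 (gap 0.774) and CPSF2 (0.761), and the highest for CSTF3 (0.852), NUDT21 (0.775), PAPOLA (0.737), PPP1CB (0.716), SLBP (0.772), INTS4 (0.754), INTS9 (0.917) and INTS11 (0.920). Induced replicate 2 was the highest for CSTF2 (0.797) and SSU72 (0.954) and the lowest for INTS9 (0.769) and INTS11 (0.754). Uninduced replicate 3 was the highest for CPSF7 (0.842).

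The change with doxycycline differed between the lines by the interaction test for CPSF6, by -1.27 on the log2 scale (adjusted P = 0.0476 by edgeR), LSM10, by -1.70 (adjusted P = 0.0468), and RNMT, by 2.43 (adjusted P = 0.0258). CPSF6 is the large subunit of cleavage factor I, and had log2 fold changes of -0.26 (transgene line) and 0.78 (parental line), neither of which passed the test alone. The CPSF6 and LSM10 calls were each kept in 3 of 16 fits that left out 1 library, and that of RNMT in 8 of 16. CPSF6 lost its call with DESeq2's size factors (adjusted P = 0.0538), filterByExpr (0.0893), no filter (0.178), total counts alone (0.174) and the replicate block (0.0624). LSM10 lost it under the same settings, at adjusted P values from 0.0538 to 0.0882, and with GC offsets (0.0557).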

How the results depend on the processing

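The number of members called, 5 with edgeR and TMM scaling, was 3 with GC offsets (WDR33, SYMPK and CPSF3, the last not among the 5). It was 2 with GC offsets and a replicate block (WDR33 and CPSF3) and 0 with 1 surrogate variable. Without uninduced replicate 5 and induced replicate 2 it was 8, and it ranged from 2 to 8 with 1 library left out. All genes called numbered 5183 with edgeR and TMM scaling, 3484 with GC offsets, 4055 with the block added and 8329 without the pair. Leaving out uninduced replicates 1 or 2, or induced replicates 1, 3 or 4, left 2 calls, and leaving out uninduced replicate 5 or induced replicate 2 gave 8. The number of other factors called, 11 with edgeR and TMM scaling, was 7 with GC offsets, among them CPSF6, which was not among the 11. It was 0 with 1 surrogate variable and 18 without that pair, with a range from 2 to 18. With 1 surrogate variable 1 gene in all was called. No member was called in the parental line under any alternative. Differences between the lines, called for 0 members, were called for 3 with DESeq2, 1 with total counts alone, 1 with a replicate block, 1 with GC offsets and a replicate block, and 4 without the pair, and for 0 to 4 with 1 library left out (3 without parental With Dox replicate 2). All genes called for this difference numbered 365 with edgeR and TMM scaling, 1478 with DESeq2 and 3040 without the pair. Pairs with a changed ratio ranged from 0 to 31, and numbered 29 without the pair. The smallest P of the sign test that pairs replicate numbers was 0.0625, so the replicate block could not call a ratio and says nothing of stability. Deviations of same-numbered libraries correlated at a mean of 0.03 in the transgene line (from -0.37 to 0.63 over 5 pairs). In the parental line the mean was -0.06 (from -0.42 to 0.24 over 3 pairs). So few and varied values do not settle whether replicate numbers pair the libraries. With the replicate block 5 members were called, with CPSF3 in and CPSF1 out (adjusted P = 0.0507), and 10 other factors. Total counts alone moved the median of all genes from 0.04 to 0.28 and gave 1 lower and 3 higher members. The causes were not tested.

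Some log2 fold changes near 0 turned. In the transgene line, CPSF2 was -0.40 with GC offsets, -0.38 with the block added and -0.080 without the pair, and ranged from -0.057 to 0.12 with 1 library left out. CSTF1 was -0.30 and -0.27 with those offsets, and ranged from -0.013 to 0.11. NUDT21 was -0.015 and -0.021, and PAPOLG -0.16 and -0.15. RBBP6 was -0.014 and LSM11 0.038 with 1 surrogate variable, and LSM11 was 0.016 with total counts alone. In the parental line, CSTF3 was 0.022 with both DESeq2's test and its size factors, 0.0026 with filterByExpr and 0.044 with no filter, and with 1 library left out it ranged from -0.58 to 0.34, CPSF1 from -0.37 to 0.70, WDR33 from -0.095 to 0.48, CPSF2 from -0.16 to 0.14 and SYMPK from -1.03 to 0.38. The difference between lines for CPSF2 was 2.4e-05 with DESeq2, 0.0061 with its size factors, 0.54 with total counts alone, 0.083 with filterByExpr and 0.11 with no filter, and ranged from -0.19 to 0.17. The other alternatives kept the sign of these genes.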
